A study of Mus musculus with 3 samples.

Results

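Ehd3-positive glomerular endothelial cells are the fenestrated capillary cells through which plasma is filtered in the kidney. They were taken from 3 whole-kidney single-cell libraries and were chosen by raw counts of unique molecular identifiers (UMIs, 1 per captured RNA molecule). A cell barcode was a member of the set if it had at least 200 detected genes, at most 50% UMIs of mitochondrial genes, at least 4 UMIs summed over the endothelial genes Emcn, Kdr, Egfl7, Flt1 and Ptprb, at least 1 UMI of Ehd3 and 0 of the leukocyte gene Ptprc. The rule found 1804 cells among 51795 barcodes that passed the first 2 conditions, of 60420 deposited. There were 727 in the library of fructose-fed db/db mice, 735 in that of control-diet db/db mice and 342 in that of db/m mice. Another 914 endothelial cells met every other condition but had no Ehd3 UMI, 408 of them from fructose-fed db/db, 367 from control-diet db/db and 139 from db/m kidneys.

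Kidneys came from male mice killed 28 weeks after birth, in 3 groups. The db/db mice, which lack a working leptin receptor and become obese and diabetic, had eaten either a diet with 60% fructose or a control diet free of fructose for 20 weeks from the age of 8 weeks. The db/m mice, which keep a working copy of the receptor gene and stay lean, had eaten the control diet over the same time. Perfused kidneys were minced and digested with collagenase and pronase, red cells, debris and dead cells were removed, and libraries were made on the 10x Genomics droplet system. There was 1 library per group and the labels used here do not give the number of mice in each, so no difference between groups has a replicate check, no test was run, and every interval given covers counting error only. Mice of the db/db type are known to differ from the db/m mice in body weight and blood sugar as well as in the receptor gene, and no db/m mice on fructose were analysed here.

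The glomerular endothelium is a thin, fenestrated sheet kept in shape by vascular endothelial growth factor (VEGF) that podocytes release across the shared basement membrane. Ehd3 is a membrane-trafficking protein that in the mouse kidney is found mainly in this capillary bed. Emcn is a sialomucin of the endothelial surface coat, Kdr is the main VEGF receptor and Plat is tissue plasminogen activator, a protease that starts the breakdown of fibrin.

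The members carried the marker that the rule did not use. Levels are given as CPM, counts per 1000000 UMIs of the summed member cells of a library. Plat was at 2916 CPM in fructose-fed db/db, 3319 CPM in control-diet db/db and 3653 CPM in db/m members, against 652, 438 and 398 CPM in the Ehd3-negative endothelial cells of fructose-fed db/db, control-diet db/db and db/m kidneys. The rule's own genes were high by construction: Ehd3 was at 2171 CPM in fructose-fed db/db, 2287 CPM in control-diet db/db and 3181 CPM in db/m members, Emcn at 2465, 2006 and 3081 CPM in the same order of libraries, and Kdr at 1521, 1399 and 1535 CPM. All 20 listed pan-endothelial genes were detected in every library, but 5 of them are the endothelial genes of the rule. Their summed level, high in part by construction, was 16330 CPM in fructose-fed db/db, 13195 CPM in control-diet db/db and 15729 CPM in db/m members.

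Many members passed on few molecules. The median member held 4 Ehd3 UMIs in the fructose-fed db/db, 5 in the control-diet db/db and 9 in the db/m library, and the median endothelial sum was 22, 16 and 24 UMIs in the same libraries. Exactly 1 Ehd3 UMI was held by 177 fructose-fed db/db, 158 control-diet db/db and 42 db/m members. At the endothelial limit, 22 fructose-fed db/db, 29 control-diet db/db and 6 db/m members had a sum of exactly 4, while 37, 13 and 7 Ehd3-positive barcodes of the same libraries stopped at 3 and were left out.

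Members made up 3.76% of the kept barcodes in the fructose-fed db/db library (95% Clopper-Pearson interval 3.50 to 4.04), 3.46% in the control-diet db/db library (3.22 to 3.72) and 3.04% in the db/m library (2.73 to 3.37). Of the endothelial cells found by the same 5 genes, the Ehd3-positive cells were 64.1% in fructose-fed db/db (61.2 to 66.8), 66.7% in control-diet db/db (63.8 to 69.5) and 71.1% in db/m kidneys (66.8 to 75.1). Kept barcodes with at least 1000 UMIs were also thinned to 1000 UMIs and the rule applied again. The shares of control-diet db/db and db/m then changed order, at 2.59% and 2.67%. Shallower barcodes were left out of these shares, so the barcodes counted as kept changed as well. With at most 30% mitochondrial UMIs the order was 3.96% in fructose-fed db/db, 4.75% in control-diet db/db and 3.45% in db/m, so that control-diet db/db was highest. Digestion and dead-cell removal act before counting, so these are shares of recovered cells and not of the tissue.

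The members' libraries differed in quality. Members summed to 2470220 UMIs in fructose-fed db/db, 2193434 in control-diet db/db and 1128059 in db/m, with medians of 2896, 2468 and 2928 UMIs and 1574, 1247 and 1514 genes per cell in the same libraries. The median mitochondrial share was 7.58% in fructose-fed db/db, 17.3% in control-diet db/db and 9.20% in db/m members, so the control-diet db/db library, which both comparisons use, stands apart. Summed proximal tubule markers in members stood at 34.6% of their level over all kept barcodes in fructose-fed db/db, 55.0% in control-diet db/db and 43.3% in db/m, a measure of tubule RNA that is free or comes from doublets. Kept barcode sequences occurred in both libraries of a pair 581 times for fructose-fed and control-diet db/db, 292 times for fructose-fed db/db and db/m, and 359 times for control-diet db/db and db/m, but no barcode was a member in more than 1 library.

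Against the Ehd3-negative endothelial cells of the same library, the members were higher in part of the glomerular endothelial list in all 3 libraries. This contrast is the one the rule made, so its values are a description. Of 4092 genes measured in either cell group, 130 (3.18%) were at least 2-fold higher in members in every library and 98 (2.39%) at least 2-fold lower. Of the 13 measured genes of the glomerular endothelial list, 7 were higher in all 3 libraries, namely Ehd3, Plat, Emcn, Kdr, Gata5, Smad6 and Nostrin, of which Ehd3, Emcn and Kdr belong to the rule. Fbln2, a matrix gene on that list, was lower in members in all 3. The remaining measured genes of the list did not pass 2-fold in the same direction in all 3 libraries.

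Sapcd1 came first in this order, which ranks genes by their smallest ratio over the 3 libraries. It was at 334 CPM in fructose-fed db/db members, 188 CPM in control-diet db/db members and 277 CPM in db/m members, against 11.7, 8.78 and 11.7 CPM in the Ehd3-negative cells of the same libraries. Gata5, a zinc-finger transcription factor, was at 108, 87.5 and 182 CPM in fructose-fed db/db, control-diet db/db and db/m members, against 12.5, 12.7 and 18.7 CPM in the Ehd3-negative cells of the same libraries. Nostrin, which binds endothelial nitric oxide synthase and moves it off the membrane, was at 250, 182 and 293 CPM in members and at 49.3, 24.4 and 58.5 CPM in Ehd3-negative cells, in the same order of libraries. For both genes the lowest of the 3 member levels lay above the highest of the Ehd3-negative levels.

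Gpihbp1, which carries lipoprotein lipase to the capillary lumen, stood with the glomerular genes: 885 CPM in fructose-fed db/db, 639 CPM in control-diet db/db and 221 CPM in db/m members, against 91.9, 106 and 46.8 CPM in the Ehd3-negative cells of the same libraries. It had been listed as a peritubular capillary marker, and so had Igfbp5, which binds insulin-like growth factors and was also at least 2-fold higher in members in all 3 libraries. The other genes named at this end were Dlk1, Qrfpr, Gchfr, Lrg1, Marcksl1, Fam167b, Gimap3, St3gal5, Fam110a and the imprinted non-coding RNA Meg3. Some of them had 0 or 1 UMI in the Ehd3-negative cells of the db/m library. Lrg1 there had 45 UMIs in members and 1 in Ehd3-negative cells, a log2 ratio of 4.09 with a 95% interval of 1.54 to 9.43. Dlk1 had 289 and 0, so that its value of 5.19 rests on a floor of 3 counts, and the lower limit of its 95% interval was 4.88.

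Genes of larger vessels were among those lowest in members. Of the 10 measured genes of the arterial, arteriolar and vasa recta list, 7 were at least 2-fold lower in all 3 libraries, namely Sox17, Gja4, Gja5, Fbln5, Cxcl12, Vegfc and Mgp, and none was higher. Mgp, an inhibitor of vessel calcification, was at 192 CPM in fructose-fed db/db, 99.4 CPM in control-diet db/db and 7.98 CPM in db/m members, against 1352, 929 and 575 CPM in the Ehd3-negative cells of the same libraries. Edn1, the vasoconstrictor endothelin 1, was at 61.9, 33.7 and 19.5 CPM in fructose-fed db/db, control-diet db/db and db/m members, against 254, 249 and 218 CPM in the Ehd3-negative cells of the same libraries. The Notch ligand Jag1, the elastic-fibre genes Fbln5 and Ltbp4, and Fbln2, Egfl8 and Fxyd6 completed this end.

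**Figure D1:**
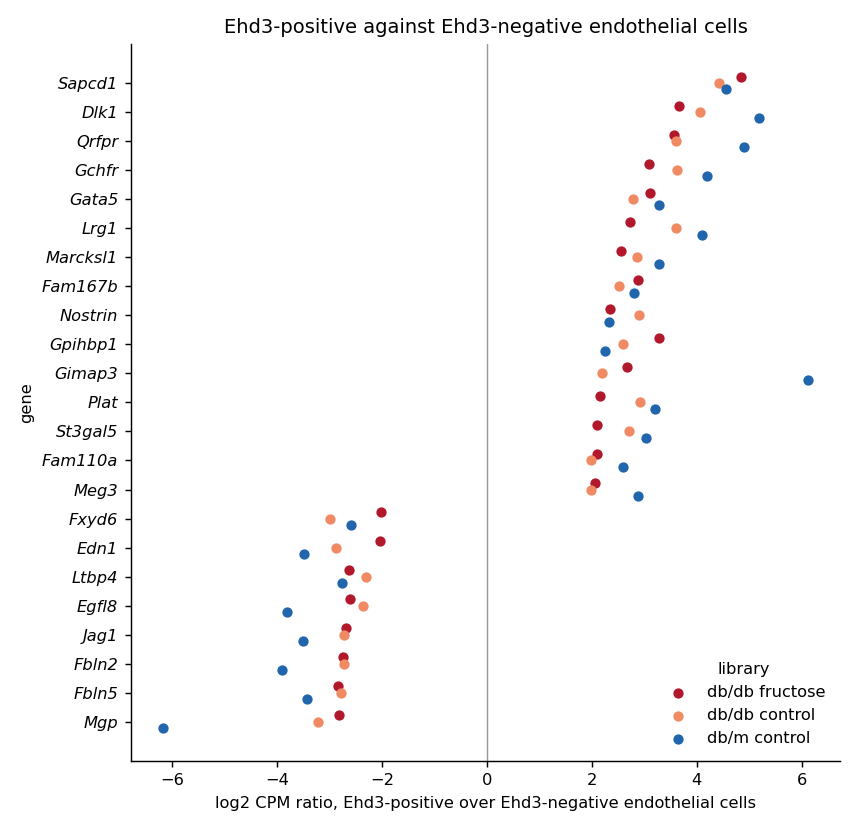
Each point is the log2 ratio of CPM in Ehd3-positive over Ehd3-negative endothelial cells of 1 library, for the 15 genes with the highest and the 8 with the lowest ratios over the 3 libraries (one row per gene, colours for libraries). All points of the upper genes lie right of 0 and all points of the lower genes left of it, and the Mgp point of the db/m library, at -6.17, lies farthest to the left. The Dlk1 point of the db/m library rests on a floor of 3 counts, since its Ehd3-negative sum was 0.

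Some members carried genes of other vessels. Plvap, the protein of fenestral diaphragms that mature glomerular capillaries lack, and Igfbp3, Mgp and Fbln5 mark other kidney vessels. At least 1 UMI of these 4 genes was present in 24.2% of fructose-fed db/db, 18.5% of control-diet db/db and 12.3% of db/m members, at the depths given above. After thinning to 1000 UMIs Plvap alone was found in 13.4% (10.9 to 16.2) of fructose-fed db/db, 7.81% (5.95 to 10.0) of control-diet db/db and 3.68% (1.92 to 6.34) of db/m members, against 0.661%, 0.276% and 0.168% of proximal tubule barcodes in the same libraries. Members with 1 or 2 Ehd3 UMIs, 37.7% of members in fructose-fed db/db, 33.1% in control-diet db/db and 21.9% in db/m, carried them at higher levels. In these low-Ehd3 members Plvap was at 1068, 624 and 421 CPM in fructose-fed db/db, control-diet db/db and db/m, against 217, 147 and 91.0 CPM in members of the same libraries with 3 or more Ehd3 UMIs. Plat ran the other way, at 1475, 1279 and 910 CPM in low-Ehd3 members of fructose-fed db/db, control-diet db/db and db/m, against 3598, 4394 and 4304 CPM in those with 3 or more. Whether the low-Ehd3 members are glomerular cells, cells of other beds or doublets was not tested. The levels of several genes shared with other vessels are therefore also given by the number of Ehd3 UMIs.

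**Figure D2:**
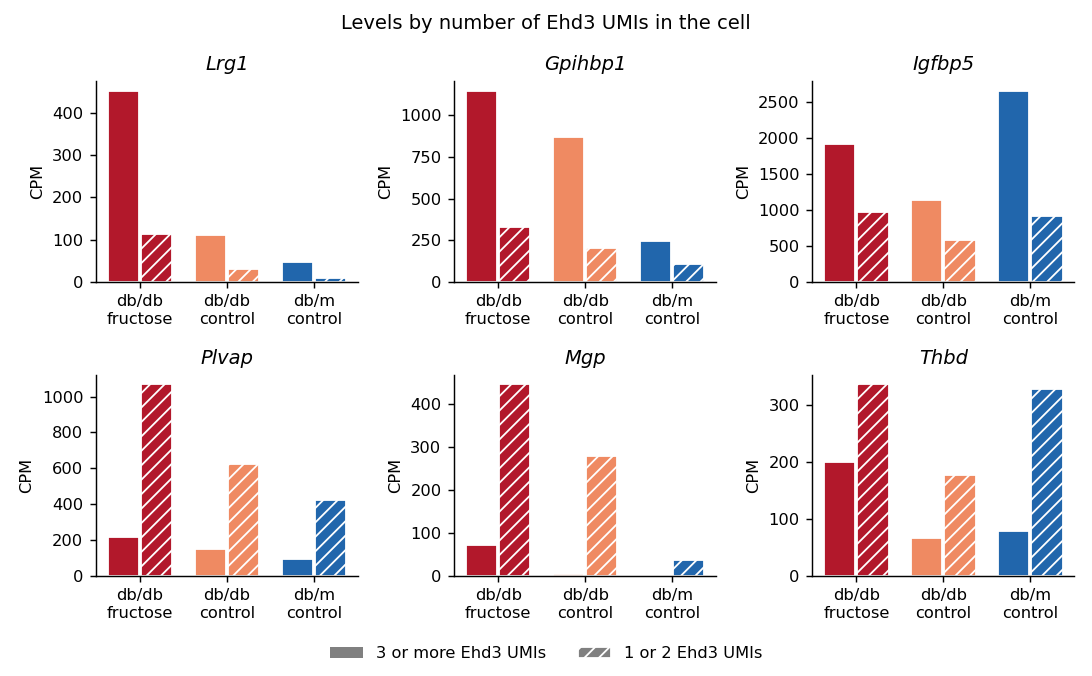
Bars give the CPM of summed UMIs (vertical axes start at 0) of 6 genes in each library, plain for members with 3 or more Ehd3 UMIs and hatched for members with 1 or 2. Lrg1, Gpihbp1 and Igfbp5 have their taller bar in the high-Ehd3 members of every library, and Plvap, Mgp and Thbd in the low-Ehd3 members of every library.

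Control-diet db/db members were set against db/m members to ask what differs in diabetic and obese mice without fructose. Of 3683 genes at a mean of at least 50 CPM, 99 (2.69%) were at least 2-fold higher in control-diet db/db and 50 (1.36%) at least 2-fold lower. The median gene stood at a log2 ratio of -0.18. When libraries were scaled by median-of-ratios size factors instead of total UMIs, 174 genes were higher and 33 lower, and the median moved to -0.01. Ratios below are given on the total-UMI scale and are to be read against the median of -0.18. For the values with free RNA subtracted, free RNA was taken as the summed profile of all kept barcodes of a library. It was scaled to the proximal tubule marker level of the members, and the remainder was rescaled to CPM. The median of all genes then stood at 0.01, so these values are to be read against 0.01.

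Gpihbp1 (chr15:75596628-75599481 of mm10, plus strand) was higher in control-diet db/db than in db/m members. The levels were 639 CPM (95% Poisson interval 606 to 673) and 221 CPM (194 to 250), a log2 ratio of 1.53 (95% interval 1.34 to 1.73) or 2.89-fold, and fructose-fed db/db members were at 885 CPM. In members with 3 or more Ehd3 UMIs the gene was at 1148 CPM in fructose-fed db/db, 868 CPM in control-diet db/db and 248 CPM in db/m. After every cell was thinned to 1000 UMIs, which left out 41 fructose-fed db/db, 18 control-diet db/db and 16 db/m members that were shallower, a Gpihbp1 UMI was found in 40.1% of fructose-fed db/db, 37.2% of control-diet db/db and 17.5% of db/m members, and in 55.7%, 53.7% and 32.7% before thinning. In proximal tubule barcodes, which should lack the gene, the thinned shares were 0.505%, 0.398% and 0.0280% in the same libraries, where the median depth was 1568, 1642 and 1635 UMIs. Both db/db libraries thus lay above the db/m library on all of these measures.

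Other genes of capillary lipid uptake were less far apart. Of the list's 7 measured genes Gpihbp1 alone was past 2-fold, and the median log2 ratio was 0.15. The fatty-acid carrier Fabp4 was at 775 CPM in control-diet db/db and 495 CPM in db/m members, a log2 ratio of 0.65, and the lipoprotein receptor Scarb1 at 43.3 CPM in control-diet db/db and 69.1 CPM in db/m, a log2 ratio of -0.67.

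Cldn5 (chr16:18776847-18778262, plus strand), the main claudin of endothelial tight junctions, had the highest ratio among the genes ranked, those at a mean of at least 100 CPM in the pair, 2.34 on the log2 scale (1.86 to 2.86) or 5.06-fold. It was at 171 CPM in control-diet db/db and 33.7 CPM in db/m members, and at 118 CPM in fructose-fed db/db members. Its UMIs lay in few cells, 107 of 727 fructose-fed db/db, 124 of 735 control-diet db/db and 24 of 342 db/m members. After thinning the shares were 7.73% (5.84 to 9.98), 7.39% (5.59 to 9.56) and 4.29% (2.37 to 7.10) of members in the same libraries. These thinned intervals overlapped, so the shares of cells differed less clearly than the sums. Cldn5 was higher in the Ehd3-negative cells, at 353 CPM in fructose-fed db/db, 371 CPM in control-diet db/db and 421 CPM in db/m. In members with 3 or more Ehd3 UMIs it was still at 118 CPM in fructose-fed db/db, 136 CPM in control-diet db/db and 21.9 CPM in db/m. No other of the 12 measured junction genes was past 2-fold, and their median log2 ratio was -0.10.

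Plvap and Mgp were also higher in control-diet db/db than in db/m members. Plvap was at 311 CPM in control-diet db/db and 154 CPM in db/m members, a log2 ratio of 1.01 (0.77 to 1.26), which a mean over cells in place of the sum lowered to 0.78. Mgp was at 99.4 CPM in control-diet db/db and 7.98 CPM in db/m members, a log2 ratio of 3.64 (2.69 to 4.79). Mgp was far higher in low-Ehd3 members, at 279 CPM in control-diet db/db and 37.0 CPM in db/m, against 4.87 and 1.10 CPM in members with 3 or more Ehd3 UMIs. All db/m members together held 9 Mgp UMIs, so the order of the libraries in members with 3 or more Ehd3 UMIs is uncertain. The part of cells from other vessels in these differences was not tested.

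Further genes were named at the upper end. Qrfpr, a receptor for the neuropeptide QRFP, was at 166 CPM in control-diet db/db and 70.0 CPM in db/m members, a log2 ratio of 1.24 (0.89 to 1.61). Cyp26b1, which breaks down retinoic acid, was at 406 CPM in control-diet db/db and 183 CPM in db/m, a log2 ratio of 1.15 (0.93 to 1.38). Amigo2, an adhesion protein, was at 165 CPM in control-diet db/db and 82.4 CPM in db/m, a log2 ratio of 1.00 (0.66 to 1.34), or 0.90 without barcodes shared between libraries. Man2a1 and Pkn2, at log2 ratios of 0.90 and 0.73, fell short of 2-fold.

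Heat-shock genes were among the 8 lowest. Hspa1a (chr17:34969190-34972156, minus strand), the inducible 70-kilodalton chaperone, was at 52.4 CPM (43.3 to 62.9) in control-diet db/db and 270 CPM (241 to 302) in db/m members, a log2 ratio of -2.37 (-2.69 to -2.05). Fructose-fed db/db members were close to control-diet db/db members, at 58.7 CPM. Its near-identical neighbour Hspa1b was at 31.5 and 122 CPM in control-diet db/db and db/m members, and since reads of the copies can be shared their separate values are uncertain. Hspb1, the small heat-shock protein that binds actin, was at 510 CPM in control-diet db/db and 1245 CPM in db/m members, a log2 ratio of -1.29 (-1.40 to -1.17), or -0.94 with free RNA subtracted. The co-chaperone Dnajb1 was at 68.4 CPM in control-diet db/db and 165 CPM in db/m, a log2 ratio of -1.27 (-1.59 to -0.95). In thinned cells a Hspa1a UMI was found in 5.54% of fructose-fed db/db, 3.91% of control-diet db/db and 19.6% of db/m members, against 1.60%, 1.66% and 2.25% of proximal tubule barcodes of the same libraries.

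The promoters of Hspa1a, Hspa1b and Hspb1 are shown because these genes differed together and heat-shock factors are known to control them. Heat-shock factors bind inverted repeats of GAA, which were searched as GAANNTTC or TTCNNGAA in the 250 bases before each start site (RefSeq, GRCm38.p6), on either strand since both patterns read the same on both. Capitals mark matches. The windows are chr17:34972157-34972406 (minus strand) for Hspa1a, chr17:34959239-34959488 (minus strand) for Hspa1b and chr5:135887669-135887918 (plus strand) for Hspb1.
Hspa1a: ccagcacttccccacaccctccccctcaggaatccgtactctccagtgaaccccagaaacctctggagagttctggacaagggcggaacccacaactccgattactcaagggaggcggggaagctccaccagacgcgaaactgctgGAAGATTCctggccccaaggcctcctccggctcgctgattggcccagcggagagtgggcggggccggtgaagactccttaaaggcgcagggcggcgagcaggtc
Hspa1b: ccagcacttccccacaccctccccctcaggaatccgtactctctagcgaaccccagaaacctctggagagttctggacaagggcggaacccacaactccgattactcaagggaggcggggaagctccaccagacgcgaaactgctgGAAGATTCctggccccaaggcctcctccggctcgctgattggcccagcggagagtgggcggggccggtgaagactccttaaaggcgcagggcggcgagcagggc
Hspb1: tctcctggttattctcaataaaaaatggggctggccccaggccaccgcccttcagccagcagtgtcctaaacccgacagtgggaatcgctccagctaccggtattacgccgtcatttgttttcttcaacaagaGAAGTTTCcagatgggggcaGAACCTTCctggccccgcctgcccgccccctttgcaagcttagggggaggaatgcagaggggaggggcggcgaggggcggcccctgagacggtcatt

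Hspa1a and Hspa1b each held 1 match, starting at base -104 from the start site, and Hspb1 held 2, while neither start site of Dnajb1 held one in its window. The windows of Hspa1a and Hspa1b were the same at 247 of 250 bases. Of all 32851 promoter windows of this length, 12.8% held a match, so these letters are common and a match is a description of the sequence only.

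The heat-shock values belong to a wider group. Of the 22 measured immediate-early and dissociation genes, which tissue digestion itself can induce, none was higher and 3 were lower in control-diet db/db members, Hspa1a, Hspa1b and Gadd45b, against 1.36% of all genes, and the list's median log2 ratio was -0.66. Gadd45b was at 50.6 CPM in control-diet db/db and 104 CPM in db/m members, a log2 ratio of -1.04, which stayed past 2-fold in 7 of 12 alternative settings. Heat-shock genes were lower in the Ehd3-negative cells too. Hspb1 was at 641 CPM in fructose-fed db/db, 586 CPM in control-diet db/db and 1130 CPM in db/m Ehd3-negative cells, and Hspa1a was at 50.1 CPM in fructose-fed db/db, 43.9 CPM in control-diet db/db and 171 CPM in db/m Ehd3-negative cells. Over all kept barcodes Hspa1a was at 37.8, 31.0 and 61.1 CPM in the same libraries. The unfolded protein response list had no gene past 2-fold among 13, with a median of -0.52, and its members with the largest ratios were Xbp1 at -0.88, Dnajb9 at -0.76 and Manf at -0.72. Whether the libraries were digested alike was not tested.

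Igfbp5 (chr1:72857932-72874884, minus strand) was one of the most abundant genes that differed. It was at 947 CPM (907 to 989) in control-diet db/db and 2331 CPM (2242 to 2421) in db/m members, a log2 ratio of -1.30 (-1.38 to -1.22), with 1617 CPM in fructose-fed db/db members. In members with 3 or more Ehd3 UMIs the levels were 1920 CPM in fructose-fed db/db, 1142 CPM in control-diet db/db and 2665 CPM in db/m. Subtraction of estimated free RNA brought the log2 ratio to -0.97, just inside 2-fold, while the median of all genes moved from -0.18 to 0.01. Thinned proximal tubule barcodes held an Igfbp5 UMI in 15.4% of fructose-fed db/db, 7.48% of control-diet db/db and 10.9% of db/m cells, against 64.1%, 49.5% and 79.4% of members.

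Dlk1 (chr12:109452823-109463336, plus strand), an imprinted Notch-related surface protein, was carried by few cells. It was at 81.6 CPM in control-diet db/db and 256 CPM in db/m members, a log2 ratio of -1.65 (-1.93 to -1.38), with 63.6 CPM in fructose-fed db/db members. Its UMIs lay in 24 of 727 fructose-fed db/db, 27 of 735 control-diet db/db and 13 of 342 db/m members, or 3.30%, 3.67% and 3.80%. After thinning the shares were 2.19% (1.23 to 3.58), 3.21% (2.04 to 4.77) and 2.45% (1.07 to 4.78) of members, against 0.174%, 0.192% and 0.0140% of proximal tubule barcodes in the same libraries. The thinned intervals of the members overlapped, and a mean over cells in place of the sum gave a log2 ratio of -0.79. Meg3, from the same imprinted region, was at 147 CPM in control-diet db/db and 154 CPM in db/m members, a log2 ratio of -0.07.

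The lower end also held Gimap3, Pltp and Pcp4l1. The GTPase Gimap3 was at 57.9 CPM in control-diet db/db and 163 CPM in db/m members (log2 ratio -1.49), with 122 CPM in fructose-fed db/db members. The phospholipid transfer protein Pltp was at 57.4 and 153 CPM in control-diet db/db and db/m members (log2 ratio -1.42), and Pcp4l1 at 64.3 CPM in control-diet db/db and 150 CPM in db/m (log2 ratio -1.22, or -0.86 with free RNA subtracted).

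**Figure D3:**
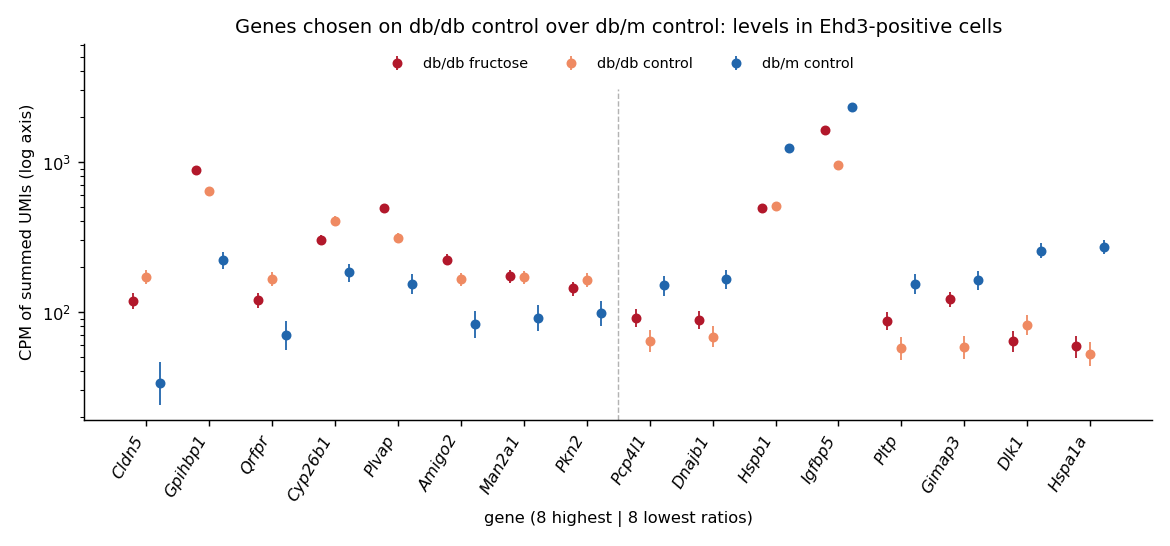
Points give CPM of summed UMIs in members of each library on a log axis, with 95% Poisson intervals for counting error, for the 8 genes with the highest and the 8 with the lowest ratios of control-diet db/db over db/m. Fructose-fed db/db points lie above the db/m points for all 8 upper genes and below them for all 8 lower genes, and for Igfbp5 and Gimap3 they lie well between the other libraries.

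The 12 measured genes of the glomerular endothelial list include Ehd3, Emcn and Kdr, which belong to the rule. Of these 12 genes Gata5 was lower by over 2-fold and none was higher. The median log2 ratio of the list was -0.32, against -0.18 over all measured genes. Gata5 was at 87.5 CPM in control-diet db/db and 182 CPM in db/m members, a log2 ratio of -1.05 (-1.35 to -0.76), and it stayed past 2-fold in 6 of 12 alternative settings. The T-box factor Tbx3 was at 121 CPM in control-diet db/db and 202 CPM in db/m (log2 ratio -0.74) and Nostrin at 182 CPM in control-diet db/db and 293 CPM in db/m (log2 ratio -0.69). Sost, a Wnt inhibitor, ran the other way at 336 CPM in control-diet db/db and 216 CPM in db/m members (log2 ratio 0.64). Gata5 was again the single gene past 2-fold among 16 endothelial transcription factors, and Cldn5 among 20 pan-endothelial genes, whose median was -0.20. Of the 4 measured peritubular and venous genes, Plvap and Gpihbp1 were higher and Igfbp5 lower, with a median of 0.80, and of the 7 measured arterial genes Mgp was higher, with a median of -0.19.

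Among the signalling lists, genes past 2-fold were few. Of the 13 measured VEGF, angiopoietin and apelin genes, Lrg1 was higher and none lower, with a median of -0.08. The VEGF co-receptor Nrp1 was at 853 CPM in control-diet db/db and 1316 CPM in db/m members (log2 ratio -0.63) and the angiopoietin receptor Tek at 209 CPM in control-diet db/db and 297 CPM in db/m (log2 ratio -0.51). No gene was past 2-fold in TGF-beta and BMP signalling (15 measured, median -0.09), Notch signalling (5, -0.20), the vasoactive list (11, -0.07) or the flow-responsive list (13, -0.28). Calcrl, the adrenomedullin and CGRP receptor, was nearest at 119 CPM in control-diet db/db and 237 CPM in db/m members (0.501-fold, just inside the limit). In the caveolae list Plvap was higher, 1 of 11, with a median of -0.21.

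Surface, matrix and inflammatory lists gave no gene past 2-fold in this comparison. The basement membrane and matrix list had a median of 0.17 over 14 genes, led by the type IV collagen chain Col4a4 at 198 CPM in control-diet db/db and 104 CPM in db/m members (log2 ratio 0.94), then the laminin chain Lamb1 (0.47) and the type IV collagen chain Col4a3 at 145 CPM in control-diet db/db and 105 CPM in db/m (0.47). Both collagen chains were higher over all kept barcodes than in members, at 375 CPM for Col4a4 in the control-diet db/db library and 455 CPM in the db/m library, so free RNA can hold part of them and that part was not tested. The medians were -0.09 over 8 glycocalyx genes, -0.27 over 9 coagulation genes, -0.39 over 7 activation and chemokine genes, -0.25 over 9 MHC genes and -0.50 over 5 interferon response genes.

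Of the metabolic and stress lists, the glucocorticoid response genes had 2 of 12 past 2-fold, both higher in control-diet db/db, against 2.69% of all measured genes, with a median of 0.09. Fkbp5 was at 86.2 CPM in control-diet db/db and 31.0 CPM in db/m members, a log2 ratio of 1.47 (0.95 to 2.04). The metallothionein Mt1 was at 314 CPM in control-diet db/db and 121 CPM in db/m, a log2 ratio of 1.37 (1.10 to 1.65), and was also the 1 gene past 2-fold among 16 oxidative stress genes, whose median was -0.32. Over all kept barcodes Fkbp5 was at 96.5 CPM in control-diet db/db and 79.4 CPM in db/m, and Mt1 at 798 CPM in control-diet db/db and 484 CPM in db/m, so both were lower in members than in the library as a whole. With free RNA subtracted the db/m sum of Fkbp5 was 0, and set to 3 counts it gave a log2 ratio of 4.03. The same subtraction left no Mt1 counts in the members of either library, so it gave no ratio for Mt1. In the other alternatives the log2 ratio of Mt1 stayed between 1.11 and 1.54. No gene was past 2-fold among 13 glucose uptake and glycolysis genes (median -0.13), 7 insulin and IGF signalling genes (0.05), 23 nuclear oxidative phosphorylation genes (-0.14), 5 cell cycle genes (-0.15), 4 circadian clock genes (0.11) or the 1 measured cholesterol gene, Hmgcs1 (-0.17).

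RNA of the mitochondrial genome was higher in control-diet db/db than in db/m members, with mt-Atp8 the 1 of 13 genes past 2-fold (0.30 with free RNA subtracted) and a median log2 ratio of 0.57. The cytochrome oxidase gene mt-Co1 was at 29366 CPM in control-diet db/db and 17622 CPM in db/m members. Over all kept barcodes mt-Co1 was at 47452 and 30721 CPM in the same libraries, and with free RNA subtracted its ratio became -0.02 on the log2 scale.

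Markers of cells that the members are not also differed. Of all measured genes, 2.69% were higher and 1.36% lower in control-diet db/db members, beside which the counts here are set. Loop and distal tubule markers summed to 3556 CPM in control-diet db/db and 1282 CPM in db/m members, with 4 of 7 measured genes higher (Slc12a1, Egf, Slc12a3 and Pvalb) and a median log2 ratio of 1.46. Proximal tubule markers summed to 6851 CPM in control-diet db/db and 8164 CPM in db/m, with 1 of 15 higher (Pck1), 2 lower (Kap and Keg1) and a median of 0.08. Erythroid genes summed to 312 CPM in control-diet db/db and 871 CPM in db/m, with 3 of 3 lower. Their log2 ratios were -1.75 for Hba-a2, -1.43 for Hba-a1 and -1.38 for Hbb-bs. Without the cells of highest Scrublet scores these became -6.45, -6.49 and -6.28. Podocyte markers summed to 748 CPM in control-diet db/db and 920 CPM in db/m, of which Podxl, which endothelial cells also make, gave 623 CPM in control-diet db/db and 792 CPM in db/m, and the nephrin gene Nphs1 was at 0 in the members of all 3 libraries. Leukocyte markers summed to 92.5 CPM in control-diet db/db and 78.9 CPM in db/m, and mesangial, pericyte and smooth muscle markers to 182 CPM in control-diet db/db and 143 CPM in db/m, of which Serpine2 gave 121 CPM in control-diet db/db and 61.2 CPM in db/m. Lymphatic markers summed to 73.4 CPM in control-diet db/db and 99.3 CPM in db/m. The part of these cells' RNA in the differences above was not tested.

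Fructose-fed db/db members were then set against control-diet db/db members, to ask what differs with the diet in db/db mice. Here 21 of the 3683 genes (0.570%) were at least 2-fold higher and 18 (0.489%) at least 2-fold lower, and the median gene stood at 0.20. With median-of-ratios size factors 9 genes were higher and 34 lower, with a median of -0.02. With free RNA subtracted and the remainder rescaled to CPM the median was also -0.02, against which such values are to be read. This comparison shares the control-diet db/db library with the one before, so a high value there lowers one ratio and raises the other. The level of all 3 libraries is therefore given for the genes with the highest ratios among those ranked, and for Prxl2a, Jam2 and mt-Co1. Many other genes below are given without their db/m level. For those, a difference with the diet was not told apart from a high or low control-diet db/db library.

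Lrg1 (chr17:56119678-56122001, minus strand), a secreted leucine-rich glycoprotein that acts on endothelial TGF-beta signalling and promotes vessel growth, had the highest ratio of the genes ranked. It was at 344 CPM (321 to 368) in fructose-fed db/db, 83.0 CPM (71.4 to 95.9) in control-diet db/db and 39.9 CPM (29.1 to 53.4) in db/m members, from 849, 182 and 45 UMIs. The log2 ratio of fructose-fed over control-diet db/db was 2.05 (1.82 to 2.29) or 4.14-fold, and that of control-diet db/db over db/m was 1.06 (0.58 to 1.56) or 2.08-fold, and 0.95 without barcodes shared between libraries. The 3 counting intervals did not overlap.

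Lrg1 was found in more of the cells as well as at a higher sum. A UMI was present in 44.3% of fructose-fed db/db, 17.6% of control-diet db/db and 10.5% of db/m members, and after thinning in 26.1% (22.8 to 29.6), 8.51% (6.57 to 10.8) and 3.68% (1.92 to 6.34). Thinned proximal tubule barcodes had it in 0.257%, 0.115% and 0.112% of cells in the same libraries. In members with 3 or more Ehd3 UMIs it was at 453 CPM in fructose-fed db/db, 111 CPM in control-diet db/db and 47.2 CPM in db/m, and in low-Ehd3 members at 113, 30.4 and 9.24 CPM. The Ehd3-negative endothelial cells were at a lower level, with 51.8, 6.83 and 2.34 CPM in the same libraries. These levels came from 62, 7 and 1 UMIs, so the order of control-diet db/db and db/m is uncertain there. Across all alternative settings the log2 ratio of fructose-fed over control-diet db/db members ran between 1.54 and 2.17.

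Thbd (chr2:148404466-148408188, minus strand), thrombomodulin, the thrombin receptor that starts the protein C anticoagulant pathway, was at 244 CPM in fructose-fed db/db, 104 CPM in control-diet db/db and 126 CPM in db/m members. The log2 ratio of fructose-fed over control-diet db/db was 1.22 (1.00 to 1.45), or 0.79 with free RNA subtracted. Members with 3 or more Ehd3 UMIs had 200 CPM in fructose-fed db/db, 66.8 CPM in control-diet db/db and 77.9 CPM in db/m, and low-Ehd3 members 336, 176 and 328 CPM. The fructose-fed library was thus highest in members with 3 or more Ehd3 UMIs. In low-Ehd3 members the fructose-fed and db/m libraries lay close together, and their order there is uncertain. Thbd was the 1 gene past 2-fold among 9 coagulation and fibrinolysis genes, whose median log2 ratio was 0.54. The nucleotide-degrading enzyme Entpd1 was at 160 CPM in fructose-fed db/db and 83.4 CPM in control-diet db/db members (0.94), and Plat at 2916 CPM in fructose-fed db/db and 3319 CPM in control-diet db/db (-0.19).

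Ly6a (chr15:74994877-74998031, minus strand), the surface protein Sca-1, which interferons induce in mice, was at 2692 CPM in fructose-fed db/db, 1222 CPM in control-diet db/db and 966 CPM in db/m members. The log2 ratio of fructose-fed over control-diet db/db was 1.14 (1.07 to 1.20), or 0.86 with free RNA subtracted. A thinned UMI was found in 71.4% of fructose-fed db/db, 55.5% of control-diet db/db and 42.3% of db/m members, against 19.8%, 24.2% and 21.2% of proximal tubule barcodes. Members with 3 or more Ehd3 UMIs had Ly6a at 2546 CPM in fructose-fed db/db, 1054 CPM in control-diet db/db and 710 CPM in db/m. Low-Ehd3 members had it at 2999, 1540 and 2047 CPM, so control-diet db/db and db/m changed order there. Ifitm3, an interferon-induced membrane protein that blocks virus entry, was at 1531 CPM in fructose-fed db/db, 736 CPM in control-diet db/db and 1067 CPM in db/m members, a log2 ratio of 1.06 (0.97 to 1.14) for the diet. It stayed past 2-fold in 7 of 12 alternative settings, and was 0.56 with free RNA subtracted. Ifitm3 was the 1 gene past 2-fold among 5 measured interferon response genes, whose median was 0.84, with Ly6e at 2057 CPM in fructose-fed db/db and 1135 CPM in control-diet db/db members (0.86) and Ifi27 at 206 CPM in fructose-fed db/db and 115 CPM in control-diet db/db (0.84). Ifitm3, Ly6e and Ifi27 were each lower in control-diet db/db than in db/m members, at log2 ratios of -0.54, -0.50 and -0.44.

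Serpine2, a protease inhibitor also made by mesangial cells, was at 291 CPM in fructose-fed db/db, 121 CPM in control-diet db/db and 61.2 CPM in db/m members. The log2 ratio for the diet was 1.27 (1.06 to 1.48), and it was the 1 measured gene of the mesangial, pericyte and smooth muscle list. With free RNA subtracted the ratio was 0.72, inside 2-fold. Over all kept barcodes it was at 108, 25.9 and 14.8 CPM in the same libraries, and in members the list summed to 430 CPM in fructose-fed db/db, 182 CPM in control-diet db/db and 143 CPM in db/m. In members with 3 or more Ehd3 UMIs Serpine2 was at 243 CPM in fructose-fed db/db, 118 CPM in control-diet db/db and 58.1 CPM in db/m. In low-Ehd3 members Serpine2 was at 392, 127 and 73.9 CPM in the same libraries. The part of mesangial RNA in its difference was not tested.

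The remaining genes of the upper end were Mest, Grrp1 and Rgcc. Mest, an imprinted gene of the hydrolase fold family, was at 196 CPM in fructose-fed db/db, 78.9 CPM in control-diet db/db and 117 CPM in db/m members, a log2 ratio of 1.31 (1.06 to 1.57) for the diet, or 0.84 with free RNA subtracted. Grrp1 was at 166, 80.2 and 127 CPM in the same libraries (log2 ratio 1.05) and stayed past 2-fold in 5 of 12 alternative settings. Rgcc, a regulator of cell cycle that complement induces, was at 198 CPM in fructose-fed db/db, 97.1 CPM in control-diet db/db and 49.6 CPM in db/m members (log2 ratio 1.03). Rgcc stayed past 2-fold in 4 of 12 alternative settings, which gave log2 ratios between 0.54 with free RNA subtracted and 3.07 without members that held a UMI of Plvap, Igfbp3, Mgp or Fbln5.

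At the lower end the ratios were smaller. Prxl2a (chr14:40993740-41013788, minus strand), a peroxiredoxin-like protein, was at 87.4 CPM in fructose-fed db/db, 181 CPM in control-diet db/db and 252 CPM in db/m members, a log2 ratio of -1.05 (-1.29 to -0.80), or -0.93 in members with 3 or more Ehd3 UMIs and none of Plvap, Igfbp3, Mgp and Fbln5, and was the single gene of the 8 lowest to pass 2-fold. The next were Cldn5 at -0.53, Tob2 at -0.50, and Ppp1r16b, Qrfpr and the bone morphogenetic protein Bmp6 at -0.48 each, then Bicd2 at -0.44 and Cyp26b1 at -0.43. Bmp6 was at 164 CPM in fructose-fed db/db and 228 CPM in control-diet db/db members. Of these 8, Cldn5, Qrfpr and Cyp26b1 were also among the 8 highest of control-diet db/db over db/m, a comparison that shares the control-diet db/db library.

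**Figure D4:**
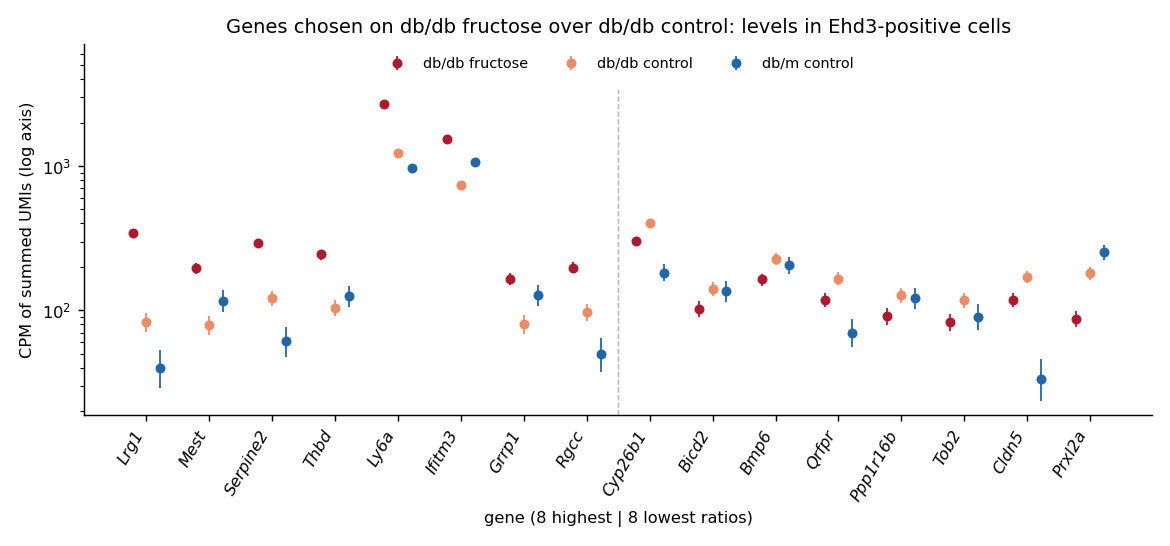
Points give CPM of summed UMIs in members of each library on a log axis, with 95% Poisson intervals for counting error, for the 8 genes with the highest and the 8 with the lowest ratios of fructose-fed over control-diet db/db. The fructose-fed points are the highest for all 8 upper genes, and the db/m point lies between the other libraries for Mest, Thbd, Ifitm3 and Grrp1.

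The endothelial lists stayed within 2-fold on fructose. No gene was past 2-fold among 20 pan-endothelial genes (median 0.36), 12 glomerular endothelial genes (0.10), 4 peritubular and venous genes (0.67) or 7 arterial genes (0.49). Of the pan-endothelial genes the sialomucin Cd34 came nearest at 360 CPM in fructose-fed db/db and 199 CPM in control-diet db/db members (log2 ratio 0.86). Igfbp5 was at 1617 CPM in fructose-fed db/db and 947 CPM in control-diet db/db members (0.77), Plvap at 491 CPM in fructose-fed db/db and 311 CPM in control-diet db/db (0.66) and Mgp at 192 CPM in fructose-fed db/db and 99.4 CPM in control-diet db/db (0.95). Of the peritubular and venous list Ackr1 was at 0 in the members of every library, and of the arterial list Slc14a1 was.

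Among the functional lists, Lrg1 was the 1 gene past 2-fold of 13 VEGF, angiopoietin and apelin genes (median 0.33), with the adhesion receptor Adgrl4 next at 404 CPM in fructose-fed db/db and 235 CPM in control-diet db/db members (0.78). Jam2, a junctional adhesion molecule, was the 1 gene past 2-fold of 12 junction genes (median 0.31), at 100 CPM in fructose-fed db/db, 40.1 CPM in control-diet db/db and 46.1 CPM in db/m members, a log2 ratio of 1.32 (0.96 to 1.69) for the diet. Its ratio was 0.89 with free RNA subtracted. No gene was past 2-fold in the vasoactive list (11 measured, median 0.45), the caveolae list (11, 0.47), the flow-responsive list (13, 0.35), TGF-beta and BMP signalling (15, 0.30), Notch signalling (5, 0.04), endothelial transcription factors (16, 0.29), glycocalyx (8, 0.38), basement membrane and matrix (14, 0.18), activation and chemokines (7, 0.44) or MHC (9, 0.30). In the vasoactive list the endothelial nitric oxide synthase Nos3 was at 106 CPM in fructose-fed db/db and 67.0 CPM in control-diet db/db members (0.67) and the adrenomedullin receptor partner Ramp3 at 234 CPM in fructose-fed db/db and 131 CPM in control-diet db/db (0.84). In the caveolae list Ehd2 was at 76.5 CPM in fructose-fed db/db and 40.1 CPM in control-diet db/db (0.93) and Cav1 at 136 CPM in fructose-fed db/db and 81.6 CPM in control-diet db/db (0.74).

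Of the stress and metabolic lists, Fkbp5 was the 1 of 12 glucocorticoid genes past 2-fold (median 0.37), at 195 CPM in fructose-fed db/db and 86.2 CPM in control-diet db/db members, a log2 ratio of 1.18 (0.93 to 1.43), or 0.96 with size factors, with 248 and 96.5 CPM over all kept barcodes of the same libraries. Mt1 was at 206 CPM in fructose-fed db/db and 314 CPM in control-diet db/db members, a log2 ratio of -0.61 that turned to 1.61 with free RNA subtracted, where the control-diet db/db sum was 0 and was set to 3 counts. No gene was past 2-fold among 22 immediate-early and dissociation genes (median 0.19), 13 unfolded protein response genes (0.17), 16 oxidative stress genes (0.09), 7 lipid uptake genes (0.22), 13 glucose uptake and glycolysis genes (0.16), 7 insulin and IGF genes (0.12), 23 nuclear oxidative phosphorylation genes (0.05), 5 cell cycle genes (0.11), 4 circadian genes (0.41) or the cholesterol gene Hmgcs1 (0.05). Tkfc, the triokinase that handles the glyceraldehyde formed from fructose, was at 58.3 CPM in fructose-fed db/db and 83.0 CPM in control-diet db/db members (-0.51), and lactate dehydrogenase Ldha at 441 CPM in fructose-fed db/db and 266 CPM in control-diet db/db (0.73). Tkfc stood at 163 and 147 CPM over all kept barcodes of these libraries, above its level in members.

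RNA of the mitochondrial genome was lower on fructose, with 5 of 13 genes past 2-fold (mt-Co1, mt-Atp8, mt-Nd3, mt-Co2 and mt-Nd4), against 0.489% of all measured genes, and a median log2 ratio of -0.98. The gene mt-Co1 was at 13200 CPM in fructose-fed db/db, 29366 CPM in control-diet db/db and 17622 CPM in db/m members. The control-diet db/db library was thus the high one, as it was over all kept barcodes, where mt-Co1 was at 21911, 47452 and 30721 CPM in the same libraries. After subtraction of free RNA the log2 ratio of mt-Co1 turned to 0.25.

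Marker sums of other cells differed here as well. Of all measured genes, 0.570% were higher and 0.489% lower in fructose-fed than in control-diet db/db members, beside which the counts here are set. Loop and distal tubule markers summed to 2670 CPM in fructose-fed db/db and 3556 CPM in control-diet db/db members, with Pvalb 1 of 7 lower (-0.09 with free RNA subtracted) and a median log2 ratio of -0.41. Proximal tubule markers summed to 6034 CPM in fructose-fed db/db and 6851 CPM in control-diet db/db, with Kap 1 of 15 higher and a median of -0.18. Erythroid genes summed to 13.8 CPM in fructose-fed db/db and 312 CPM in control-diet db/db, with 3 of 3 lower. Without the cells of highest Scrublet scores none of the 3 was past 2-fold lower, with log2 ratios of -0.49 for Hba-a2, 0.00 for Hbb-bs and 0.95 for Hba-a1, each from few UMIs, since no erythroid gene had more than 16 in all fructose-fed db/db members. Podocyte markers summed to 1027 CPM in fructose-fed db/db and 748 CPM in control-diet db/db, of which Podxl gave 858 CPM in fructose-fed db/db and 623 CPM in control-diet db/db, leukocyte markers to 64.0 CPM in fructose-fed db/db and 92.5 CPM in control-diet db/db, and lymphatic markers to 86.2 CPM in fructose-fed db/db and 73.4 CPM in control-diet db/db. Scrublet doublet scores at the expected rate marked 21.3% of fructose-fed db/db, 21.8% of control-diet db/db and 14.3% of db/m members. The rate, set beforehand from the number of deposited barcodes, was 16.3%, 21.2% and 10.8% of all kept barcodes in the same libraries. Without the marked cells Lrg1 had a log2 ratio of 2.09 for the diet.

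**Figure D5:**
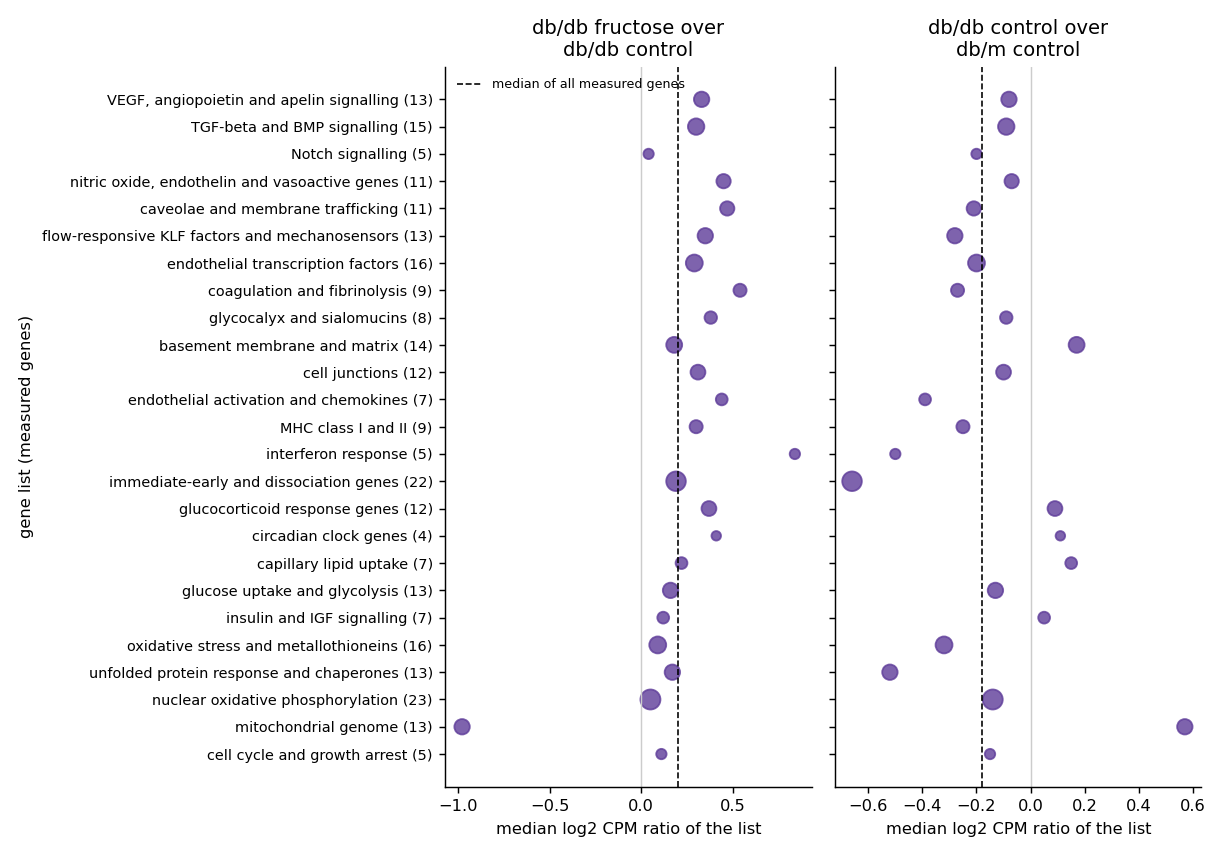
Each point is the median log2 CPM ratio, in members, of a functional gene list with at least 3 measured genes (horizontal axes, with larger points for more measured genes, whose number follows each name), for fructose-fed over control-diet db/db on the left and control-diet db/db over db/m on the right. The dashed lines mark the median of all 3683 measured genes, 0.20 and -0.18. Among these lists, which hold no cell type markers, the mitochondrial genome lies farthest from the line on the left, and the mitochondrial genome and the immediate-early and dissociation genes lie far from it on opposite sides on the right.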

How the data were processed

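The authors deposited UMI counts per gene and barcode for 3 whole-kidney libraries. The submitters' processing notes name Cell Ranger 6.0.0 and the mm10 build; each library holds 32285 genes. Members and gene lists were chosen with earlier results of these data known.

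Counts of the members were summed per library and divided by their total, as CPM. Nothing was tested. Levels have exact Poisson, ratios exact conditional binomial and shares exact Clopper-Pearson 95% intervals, for counting error only. UMI totals were 1128059 to 2470220 per library. Genes at a mean of 50 CPM were measured, 2-fold ratios were called, and a sum of 0 was set to 3 counts. Named are the 8 highest and 8 lowest ratios of each comparison among genes at 100 CPM or more that were at least as high in members as over all kept barcodes in at least 1 of the 2 libraries, and up to 3 genes of each of 37 lists. Left out were mitochondrial, ribosomal, haemoglobin and immunoglobulin genes and unnamed models. Against Ehd3-negative cells the 15 highest and 8 lowest were named. Genes given beside these, such as Sost, Meg3 and Plat in the comparisons, were chosen after their values were seen. Barcodes with at least 4 UMIs over Slc34a1, Lrp2, Slc5a2 and Miox and none of the 5 endothelial genes served as the proximal tubule cells beside shares of cells with a UMI.

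Doublets were kept and removed only as an alternative, with Scrublet in scanpy 1.11.5 at 0.8% per 1000 barcodes. Its automatic calls ranged between 0 and 3109 barcodes and were not used. Alternatives changed the scaling, the CPM minimum, the fold limit and the cell filters, subtracted free RNA, averaged per cell and thinned cells to 1000 UMIs. Free RNA was estimated from the summed kept barcodes and not from empty droplets, and its subtraction rescales all other genes. Scripts ran in Python 3.11.15 with numpy 2.4.6, scipy 1.17.1 and pandas 2.3.3, and the ratios were tested on simulated data. Positions are from GENCODE M21 (GRCm38, mm10).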

Additional observations from a re-analysis of the deposited data

Results flagged for a closer look

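Some cells met every condition of the rule but 1 and are in no comparison. They are given because they fall outside the main measurement, and nothing was measured in them here beyond their number. For 1 or more Ptprc UMIs alone, 8 cells were left out in the fructose-fed db/db library, 8 in the control-diet db/db library and 4 in the db/m library. For over 50% mitochondrial UMIs alone, 11 cells were left out in the control-diet db/db library and 0 in each of the others.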

How the results depend on the processing

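With 1 library per group no library could be left out, and no paired analysis was possible because each group is a single library. Of 103 named results of control-diet db/db over db/m, recomputed to 1219 values, 1042 stayed close, 176 moved and 1 reversed. Of 103 of fructose-fed over control-diet db/db, 988 of 1226 stayed close, 234 moved and 4 reversed. Reversed means a ratio past 2-fold that changed sign. These log2 ratios were -4.41 for Pck1 in control-diet db/db over db/m, of which subtraction left under 3 counts in both, and 0.25 for mt-Co1, 0.43 for mt-Atp8 and 0.67 for mt-Nd3 in fructose-fed over control-diet db/db, all with free RNA subtracted, and 0.95 for Hba-a1 in fructose-fed over control-diet db/db without high Scrublet scores. Of ratios inside 2-fold, several changed sign under 1 or more alternatives. In fructose-fed over control-diet db/db, Mt1 and Tef turned to 1.61 and -2.02 with free RNA subtracted. Those in control-diet db/db over db/m included Fbln5, from 0.67 to -0.02 with at least 2 Ehd3 UMIs. Another was Cd74, from 0.26 to -0.27 in members with no UMI of Plvap, Igfbp3, Mgp or Fbln5. The cause was not tested.

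Counts of genes past the fold limit moved as follows, with those higher and lower in control-diet db/db over db/m first and those higher and lower in fructose-fed over control-diet db/db after them. Size factors gave 174, 33, 9 and 34, a minimum of 100 CPM 44, 24, 12 and 10, a minimum of 20 CPM 282, 133, 75 and 32, and a limit of 1.5-fold 332, 497, 312 and 74. In control-diet db/db over db/m, 157 were higher with free RNA subtracted and 54 with a mean over cells. In fructose-fed over control-diet db/db, 30 were lower with at least 2 Ehd3 UMIs and 32 without high Scrublet scores. Alternatives added after seeing the data gave 169 higher in control-diet db/db over db/m, and 13 higher and 31 lower on fructose, with CPM without mitochondrial UMIs. They gave 41 higher in control-diet db/db over db/m and 34 lower on fructose with 3 or more Ehd3 UMIs and none of Plvap, Igfbp3, Mgp and Fbln5.

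Members' shares of kept barcodes in fructose-fed db/db, control-diet db/db and db/m were 4.12%, 4.09% and 3.57% with at least 500 genes, 3.23%, 2.83% and 2.64% with an endothelial sum of at least 8, 2.85%, 2.72% and 2.67% with at least 2 Ehd3 UMIs, and 2.97%, 2.59% and 2.67% after thinning to 1000 UMIs. With at most 30% mitochondrial UMIs they were 3.96% in fructose-fed db/db, 4.75% in control-diet db/db and 3.45% in db/m. The order of control-diet db/db and db/m thus turned under thinning, and that of fructose-fed and control-diet db/db with at most 30% mitochondrial UMIs. In Ehd3-negative comparisons 53 of 69 results stayed close, 16 moved and 0 reversed.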
